A study of Mus musculus with 24 samples.

Results

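The change of pancreatic stellate cells (PSC) over time in inverse co-culture with KPC cells was examined. Time point 72 h was set against time point 24 h, with cancer cells on the other side of a thin membrane. The libraries were chosen by their titles alone and are 6 of the 24 of the study, 3 at 24 h and 3 at 72 h. The study set inverse co-culture beside standard co-culture, in which the KPC cells grow at the bottom of the well away from the PSC, and each model has mono-cultured control PSC at both times, which makes 8 groups of 3 libraries. The 3 mono-culture libraries at 24 h and 3 at 72 h of the inverse model, and the 6 libraries of standard co-culture, are used here only for comparison.

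PSC came from wild-type C57BL/6J mice aged 7 to 10 weeks, with the pancreata of 4 to 10 mice pooled for an isolation, and were used at passages 1 to 2. The KPC cells are 1 line, used up to passage 15, from the pancreatic tumour of a female mouse aged 18 weeks that carried p48-Cre, in which Cre under a pancreatic promoter switches on mutant alleles, a mutant LSL-Trp53 among them. KPC cells were seeded on the underside of a membrane with 1 µm pores 24 h before the PSC were seeded on its upper side. The time was counted from 24 h after that, so at each time point the PSC had been with KPC cells for 24 h longer than its name says. The medium, with 10% serum, was not changed, so longer culture, longer exposure to KPC cells and older medium cannot be told apart within co-culture. The study's methods call the 3 libraries of a group biological replicates. Neither they nor the labels say whether these came from separate isolations, and p-values measure the spread between these libraries.

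Stellate cells store vitamin A and fat droplets in the healthy pancreas. On injury, in culture or near a tumour they lose the droplets, divide and become myofibroblasts, which contract through smooth muscle actin and build the collagen-rich stroma of pancreatic cancer. Transforming growth factor beta drives the contractile state, whereas interleukin 1 and other cytokines drive an inflammatory state that secretes interleukin 6, chemokines and complement. Interferons, which infected or stressed cells release, act on all of these cells and induce antiviral genes and the genes of antigen presentation.

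The values are FPKM, fragments scaled to gene length and to the size of the library, for 53801 genes. The 6 libraries held 16110302 to 22915802 counted fragments (median 19348854), and 12552 to 12865 genes of each were above 1 FPKM. Vim, Acta2 and Des, which mark activated stellate cells, and Pdgfra, which marks fibroblasts, were well expressed in all 6 libraries. Gfap, the glial filament used as a stellate marker, was at or below 0.164 FPKM and was not tested. Of the 18 listed fibroblast and stellate markers, Pdpn was at 0 in all 6 libraries. S100a4 was at or below 4.17 FPKM and Cd34 at or below 4.75 FPKM. Each other marker of that list was at or above 11.3 FPKM in all 6. Of the 12 endothelial markers 4 were at 0 in all 6 libraries, Cdh5 among them, and Pecam1 was at or below 0.0753 FPKM. Eng, Egfl7 and Tek of the same list were detected, with Eng, a receptor that mesenchymal cells also carry, at 224, 220.01 and 202 FPKM at 24 h and at 173, 164 and 181 FPKM at 72 h. The 20 epithelial and ductal markers summed to 17.3, 64.3 and 16.4 FPKM at 24 h and to 14.7, 15.1 and 15.7 FPKM at 72 h, so that replicate 2 of 24 h stands apart. It held 683 fragments of Krt8, an epithelial keratin, where the other 5 libraries held 0 to 115. The 21 leukocyte markers summed to 112, 98.3 and 34.3 FPKM at 24 h and to 112, 114 and 84.1 FPKM at 72 h, with replicate 3 of 24 h the lowest. Values without 1 or both of these libraries are given below for several of the gene lists.

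The 2 time points were not well separated as whole profiles. The mean absolute difference in log2(FPKM + 0.5) over the genes tested was 0.279 to 0.404 between 24 h libraries, 0.261 to 0.436 between 72 h libraries, and 0.276 to 0.528 between libraries of different times. Replicate 3 of 24 h was nearer to replicate 1 of 72 h, at 0.276, than to either other 24 h library. Expression at 72 h was tested against 24 h with limma on log2(FPKM + 0.5), with Benjamini-Hochberg adjustment over the 12758 genes that passed an expression filter, and the fold changes below are on that scale. A single gene was called at an adjusted p under 0.05, higher at 72 h (0.00784% of the genes tested), and no gene was called lower (0.0%). Without adjustment, limma gave 1953 genes with p under 0.05 (15.3%), of which 547 were higher (4.29%) and 1406 lower (11%) at 72 h, and limma's voom on fragments recovered from the FPKM called no gene, with 2074 at an unadjusted p under 0.05. All 3 libraries of 72 h lay above all 3 of 24 h in 996 genes (7.81%) and below them in 1777 genes (13.9%). The median log2 fold change over all genes tested was -0.07, and it was -0.00 when the libraries were scaled by their median ratio. Leaving out replicate 3 of 24 h raised the genes at an unadjusted p under 0.05 to 2892 and those called to 4 higher and 4 lower, whereas leaving out replicate 1 or 2 of 24 h left 1181 or 1074 genes and no call. Leaving out replicate 3 of 72 h gave 1 call in each direction, and replicate 1 or 2 of 72 h none. The genes lower at an unadjusted limma p under 0.05 were 828, 813 and 2068 without replicate 1, 2 or 3 of 24 h. They were 1049, 1250 and 1409 without replicate 1, 2 or 3 of 72 h. In the same order the genes higher were 353, 261 and 824 and then 384, 414 and 561. With this spread, differences of single genes are described below by their values in every library, and adjusted p-values near 0.13 to 0.3 recur because many genes share them.

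**Figure D1:**
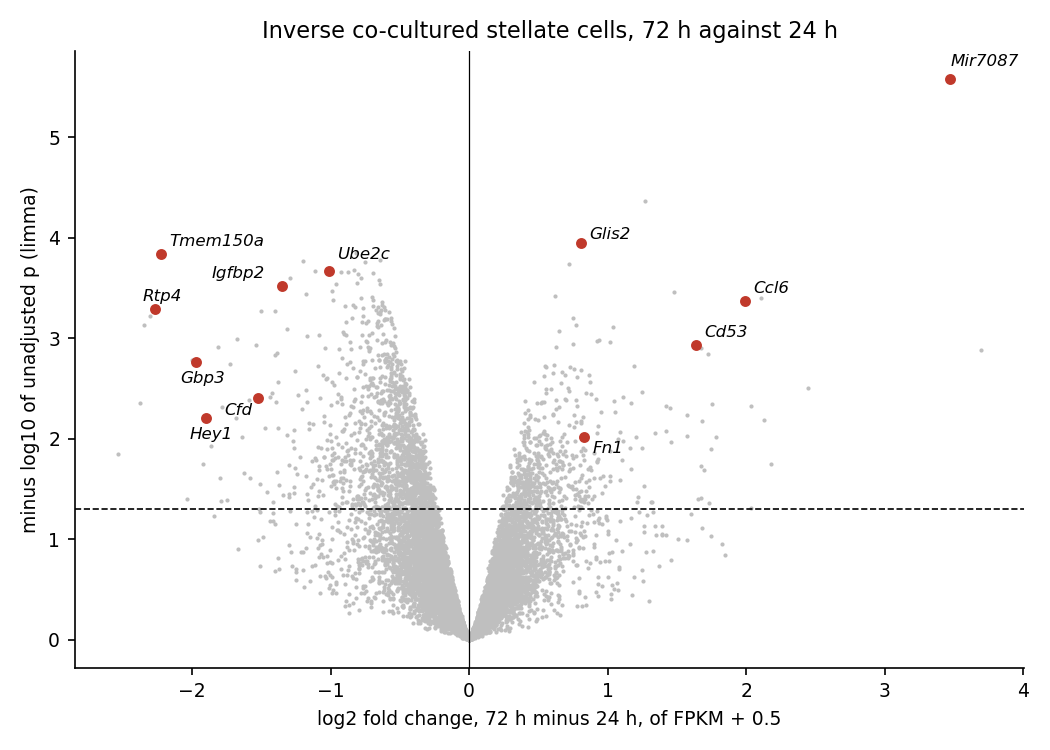
Log2 fold change of FPKM + 0.5, 72 h minus 24 h in inverse co-culture (horizontal axis), against minus log10 of the unadjusted limma p (vertical axis), with 1 point for each of 12758 genes and genes of the text in red. The dashed line is an unadjusted p of 0.05, above which 1406 genes lie on the left and 547 on the right, and Mir7087 is the single gene past the adjusted threshold.

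The gene called was Mir7087, annotated as a microRNA hairpin of 70 bases at chr9:45939521-45939590 on the minus strand of GRCm38. It lies within Sidt2, a gene for a lysosomal membrane protein at chr9:45937857-45955258 on the same strand, and overlaps none of its annotated exons. Its sequence and those of its mature forms, from RefSeq on GRCm38.p6, are shown because it is the one gene past the threshold. Capitals mark the mature parts in the hairpin and the seed, bases 2 to 8, in the mature forms.
Mir7087 hairpin: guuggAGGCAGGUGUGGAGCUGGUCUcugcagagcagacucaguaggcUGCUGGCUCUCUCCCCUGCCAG
mmu-miR-7087-5p: aGGCAGGUguggagcuggucu
mmu-miR-7087-3p: uGCUGGCUcucuccccugccag

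Each seed occurs in 1 of the 1679 mature mouse microRNAs of the RefSeq table, so neither is shared with another. Mir7087 was at 0 FPKM in all 3 libraries of 24 h and at 4.28, 6.56 and 4.59 FPKM at 72 h. These values rest on 0, 0 and 0 fragments against 6, 8 and 6 fragments. Over the group, 20 fragments at 72 h against a floor of 3 at 24 h make it at least 7.22-fold higher at 72 h, and the limma test gave an adjusted p of 0.0334. With 0 at 24 h the gene passed the expression filter only through the 72 h libraries, so it had to differ, and its test supports nothing further. Sidt2 itself was at 246, 241 and 211 FPKM at 24 h and at 236, 245 and 220 FPKM at 72 h, so the groups of the host gene overlapped. In mono-culture Mir7087 had 1, 1 and 6 fragments at 24 h and 10, 6 and 5 at 72 h, and in standard co-culture 2, 0 and 0 and then 0, 0 and 4. Libraries of polyadenylated RNA do not measure mature microRNAs, and a fragment here can come from the Sidt2 primary transcript. The call was lost without replicate 1 (adjusted p = 0.168) or replicate 2 (adjusted p = 0.194) of 24 h in the same limma test, and without any 72 h library the gene no longer passed the filter.

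Many genes of interferon response were lower at 72 h. Of 41 genes listed for interferon response and antigen presentation, 34 were tested, with a median log2 fold change of -0.75 at 72 h against -0.07 over all genes. None was called. At an unadjusted limma p under 0.05, 20 of the 34 (58.8%, against 11% of all genes) were lower and none was higher, and in 15 (44.1%, against 13.9%) the groups did not overlap, all lower. As everywhere in bulk RNA, fewer expressing cells and less RNA per cell cannot be told apart.

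Rtp4, an interferon-induced protein that helps receptors reach the cell surface, was at 16.8, 8.23 and 4.78 FPKM at 24 h and at 1.52, 1.04 and 1.80 FPKM at 72 h. The groups did not overlap, replicate 1 of 24 h was highest, and the log2 fold change was -2.27 ± 0.41 (SE; limma adjusted p = 0.131). Gbp3, a guanylate-binding protein that attacks the vacuoles of intracellular pathogens, was at 21.8, 11.6 and 6.10 FPKM at 24 h and at 1.74, 3.73 and 2.63 FPKM at 72 h. Here too replicate 1 of 24 h was highest and replicate 3 nearest to the 72 h libraries, with a log2 fold change of -1.97 ± 0.43 (SE; limma adjusted p = 0.146). Ifit1, which binds viral RNA that lacks the host cap marks, was at 12.3, 4.44 and 2.06 FPKM at 24 h and at 0.433, 1.12 and 1.71 FPKM at 72 h. Oasl2, an antiviral protein related to the oligoadenylate synthetases, was at 53.3, 20.6 and 16.8 FPKM and then at 6.21, 9.08 and 10.8 FPKM. Both show the same order, with all of 72 h under all of 24 h and log2 fold changes of -1.86 and -1.59 (limma adjusted p = 0.218 and 0.162). Ifi27l2a, a small interferon-induced mitochondrial protein, was at 73.4, 33.9 and 35.4 FPKM at 24 h and at 14.6, 16.2 and 15.4 FPKM at 72 h, and Irf7, the transcription factor that amplifies the interferon response, at 38.7, 13.1 and 12.9 FPKM and then at 5.19, 5.44 and 9.37 FPKM. In both, replicate 1 of 24 h was well above the other two, and all of 72 h lay lower. Irf7 shares exon positions with Phrf1 on the other strand, and Rtp4 with a transcript on its own strand, and counting that disregards strand cannot separate such pairs.

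Of the more abundant antigen presentation genes, B2m, the invariant chain of class I molecules, was at 768, 519 and 429 FPKM at 24 h and at 319, 364 and 303 FPKM at 72 h, a log2 fold change of -0.76 ± 0.21 (SE; limma adjusted p = 0.18) with no overlap. H2-D1, a class I heavy chain, was at 320, 241 and 170 FPKM and then at 200.4, 221 and 172.4 FPKM, so its groups overlapped. The class II genes H2-Ab1 and Cd74, picked after their values were seen, also overlapped, with log2 fold changes of 0.61 and 0.67. The mean level of the 34 genes in each library was 4.25, 3.51 and 3.28 on the log2(FPKM + 0.5) scale at 24 h and 2.82, 3.02 and 2.93 at 72 h. Mono-culture libraries lay at 3.02, 2.98 and 3.29 at 24 h and 3.19, 3.04 and 3.30 at 72 h, so replicates 1 and 2 of co-culture at 24 h stood above the other 10 libraries. Without replicate 1 of 24 h the median was -0.48 and the members lower at an unadjusted limma p under 0.05 were 12. Without replicate 2 of 24 h they were -0.72 and 15, and without replicate 3 of 24 h -0.93 and 24.

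Promoters of 3 of these genes are printed because they carry the letters TTTC, any 2 bases and TTTC again, of the interferon-stimulated response element, which interferon-activated factors bind. The sequences are from RefSeq on GRCm38.p6 and run from 250 bases before to 50 bases after the annotated start, 5′ to 3′ on the strand of the gene, with matches on either strand in capitals. They lie at chr3:142559794-142560093 on the plus strand for Gbp3, chr19:34640639-34640938 on the plus strand for Ifit1 and chr2:122147437-122147736 on the plus strand for B2m.
Gbp3 promoter: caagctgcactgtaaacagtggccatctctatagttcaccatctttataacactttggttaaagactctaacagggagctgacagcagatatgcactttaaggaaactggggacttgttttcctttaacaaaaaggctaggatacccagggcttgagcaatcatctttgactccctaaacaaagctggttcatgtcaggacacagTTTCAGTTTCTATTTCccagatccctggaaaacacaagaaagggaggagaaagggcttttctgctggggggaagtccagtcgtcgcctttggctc
Ifit1 promoter: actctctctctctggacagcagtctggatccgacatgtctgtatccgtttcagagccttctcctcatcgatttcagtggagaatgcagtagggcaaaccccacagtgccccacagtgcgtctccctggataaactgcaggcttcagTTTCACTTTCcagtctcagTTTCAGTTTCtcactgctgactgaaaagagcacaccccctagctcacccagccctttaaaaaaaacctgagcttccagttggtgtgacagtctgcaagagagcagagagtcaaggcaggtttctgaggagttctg
B2m promoter: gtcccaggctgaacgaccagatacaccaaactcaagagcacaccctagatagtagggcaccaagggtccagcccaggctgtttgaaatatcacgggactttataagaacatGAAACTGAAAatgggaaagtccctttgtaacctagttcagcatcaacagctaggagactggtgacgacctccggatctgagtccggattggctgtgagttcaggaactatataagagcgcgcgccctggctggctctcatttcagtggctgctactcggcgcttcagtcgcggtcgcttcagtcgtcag

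The letters occurred in 11 of the 26 promoters found for tested members of the list (42.3%), in 271 of the 9310 promoters of genes tested (2.91%) and in 943 of all 27025 promoters of the table (3.49%). Among the 12 members with a promoter that were lower without overlap, 5 had a match. A match is a description of the letters and does not show binding.

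Fat droplet genes mostly had negative fold changes in co-culture. Of 32 genes of the adipocyte and lipid droplet list 27 were tested, the median log2 fold change was -0.64, 23 had a negative fold change, and in 4 the groups did not overlap with 72 h lower (14.8%, near the 13.9% of all genes), against 1 higher. Of the 27 members, 12 (44.4%, against 11% of all genes) were lower at an unadjusted limma p under 0.05 and none was called. Cfd, the adipocyte-secreted complement factor D, was at 34.8, 23.2 and 13.7 FPKM at 24 h and at 8.25, 10.96 and 4.48 FPKM at 72 h. Fabp4, the fatty acid carrier of fat cells, was at 79.4, 51.2 and 44.1 FPKM and then at 30.5, 42.1 and 14.2 FPKM, and Mgll, which splits monoglycerides, at 9.84, 5.76 and 4.58 FPKM and then at 3.05, 3.73 and 2.10 FPKM. In all 3 genes the groups did not overlap, replicate 1 was highest at 24 h and replicate 3 lowest at 72 h, and the log2 fold changes were -1.53, -1.08 and -1.03 (limma adjusted p = 0.162, 0.246 and 0.212). Plin1, the coat protein of fat droplets, was at 50.1, 31.5 and 17.7 FPKM at 24 h and at 13.2, 29.8 and 5.82 FPKM at 72 h and overlapped. Lpl, lipoprotein lipase and the most abundant member, went the other way, at 620, 466 and 446 FPKM and then 647, 833 and 376 FPKM, with overlap and a log2 fold change of 0.22 ± 0.28 (SE). Cebpa, a transcription factor of fat cell differentiation, was at 115, 108 and 46.7 FPKM and then at 57.4, 71.9 and 39.7 FPKM. Leaving out single libraries moved the list median between -0.49 (without replicate 1 of 24 h) and -1.07 (without replicate 2 of 72 h) and the members lower at an unadjusted limma p under 0.05 between 2 and 17 for the same libraries. Without replicate 2 of 24 h they were -0.55 and 4, without replicate 3 of 24 h -0.90 and 15, without replicate 1 of 72 h -0.74 and 5, and without replicate 3 of 72 h -0.50 and 6. Among all genes, 828 of 12515 were lower at an unadjusted limma p under 0.05 without replicate 1 of 24 h. Without replicate 2 of 72 h 1250 of 12534 were.

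In mono-culture, over the same hours, 25 of 28 tested members of the droplet list were called higher by limma and none lower, against 10.2% of all genes called higher and 9.05% lower there, with a median log2 fold change of 1.51, and Plin1 went from 54.7, 51.2 and 84.5 FPKM to 343, 204 and 298 FPKM. The difference between the changes, co-culture minus mono-culture, was tested with limma over the 12 libraries of the inverse model. No gene of 13722 was called (0.0%; smallest adjusted p 0.0595), 1471 had an unadjusted p under 0.05 (10.7%), with 431 above 0 (3.14%) and 1040 below 0 (7.58%), and voom called 13 genes below 0 and 1 above. Of the 29 droplet genes in that test 28 were below 0 at an unadjusted p under 0.05. The difference was -3.30 for Plin1 (limma adjusted p = 0.125), -2.57 for Fabp4 (adjusted p = 0.142), -2.58 for Mgll (adjusted p = 0.0643) and -2.70 for Cfd (adjusted p = 0.148). In each of these 4 genes all 3 mono-culture libraries were above all 3 co-culture libraries at 72 h.

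Few genes of fatty acid and sterol metabolism differed without overlap over time in co-culture. The 26 tested genes of fatty acid synthesis and oxidation had a median log2 fold change of -0.11, and 2 (7.69%, against 13.9% of all genes) were lower without overlap. That median was -0.05 without replicate 1 of 24 h and -0.24 without replicate 3 of 24 h, when 8 members were lower and 3 higher at an unadjusted limma p under 0.05, against 2 and 1 with all libraries. The 2 without overlap were Hadha, at 102, 106 and 77.7 FPKM and then at 67.1, 73.4 and 74.6 FPKM, and Hadhb, at 43.8, 38.5 and 37.4 FPKM and then at 36.3, 34.5 and 34.5 FPKM, which encode both subunits of the mitochondrial enzyme of fatty acid oxidation. Of the 28 sterol genes 3 (10.7%, against 7.81%) were higher without overlap, among them Abca1, the cholesterol exporter, at 16.0, 13.9 and 13.6 FPKM and then at 18.9, 21.7 and 16.1 FPKM, and Sc5d, an enzyme late in cholesterol synthesis. In mono-culture 17 of the 28 sterol genes were called higher, against 10.2% of all genes, and none lower. The difference between the changes was below 0 at an unadjusted limma p under 0.05 in 11 of the 28, against 7.58% of all genes, and above 0 in none.

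**Figure D2:**
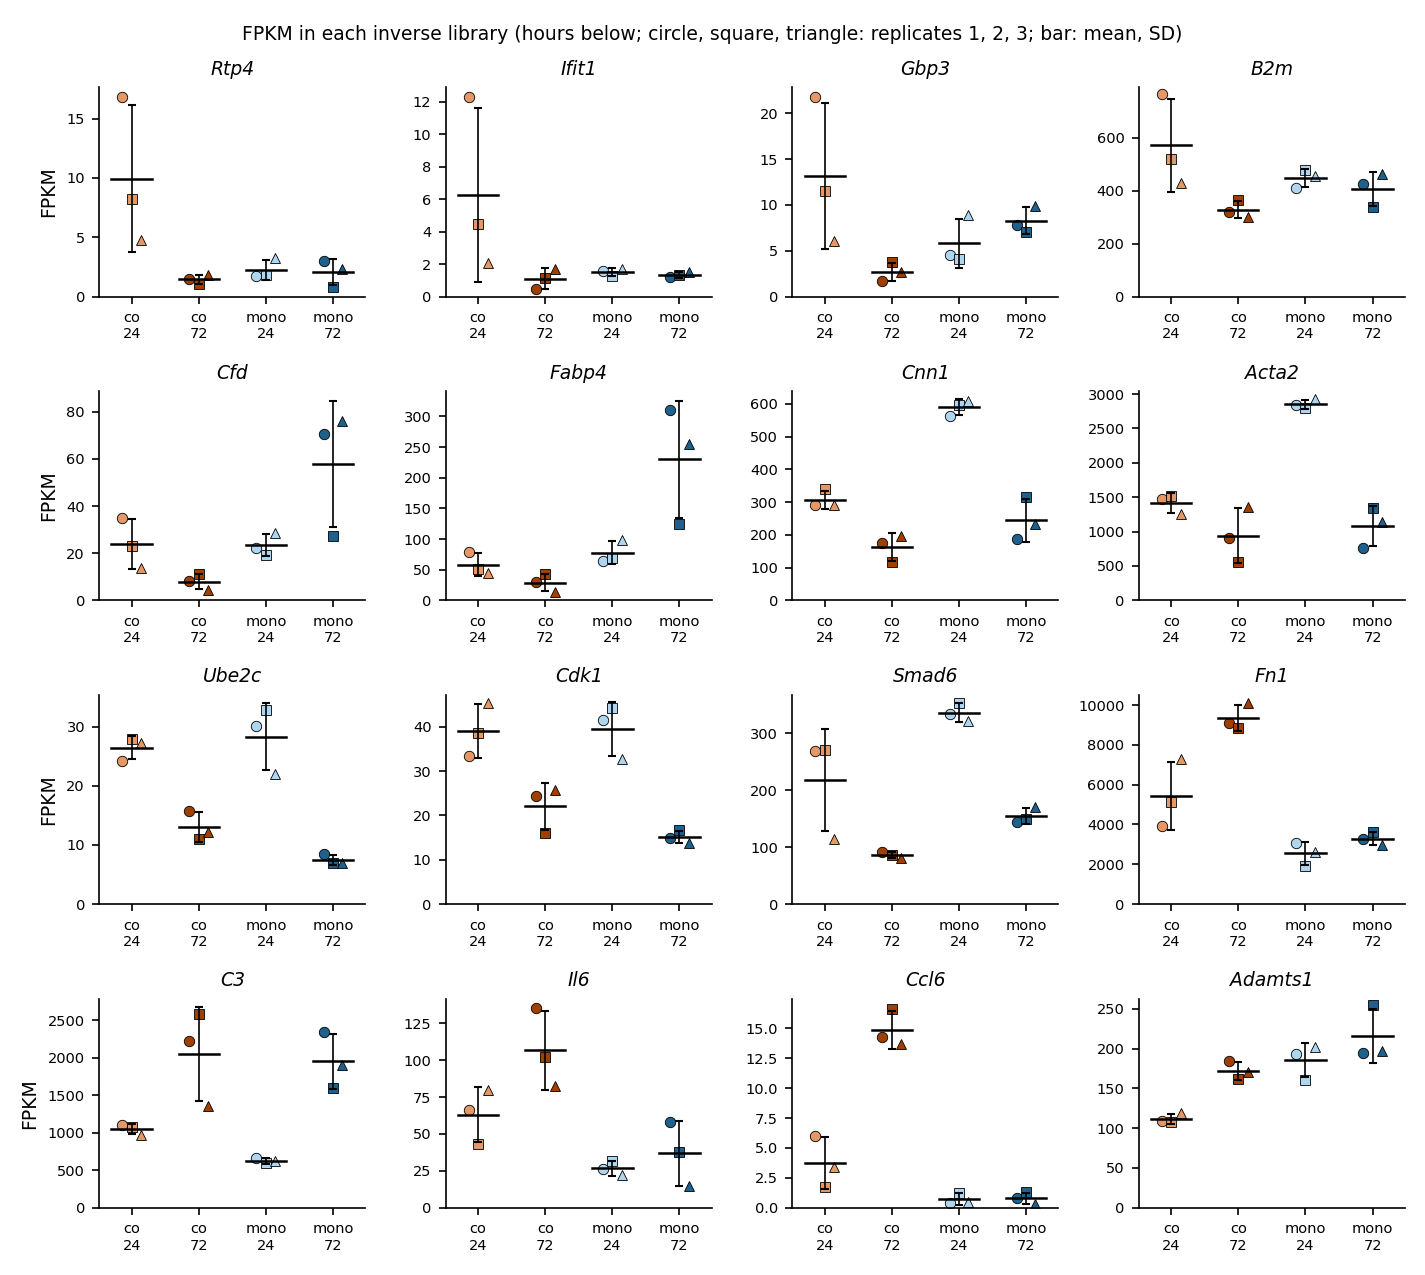
FPKM of 16 genes in each library of the inverse model, with co for co-culture and mono for mono-culture at 24 and 72 h. Circles, squares and triangles are replicates 1, 2 and 3, and the bar and whiskers are the mean and SD of 3 libraries. Rtp4, Ifit1, Gbp3 and B2m were highest in replicate 1 of co-culture at 24 h, and Cfd and Fabp4 were highest in mono-culture at 72 h.

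Many genes of mitosis were lower at 72 h in co-culture. Of 65 tested genes of mitosis and the G2/M transition 27 (41.5%) were lower at an unadjusted limma p under 0.05 against 11% of all genes, and none was higher. In 26 (40%) the 72 h libraries were lower without overlap, against 13.9% of all genes, and the median log2 fold change was -0.40. None was called. Ube2c, the ubiquitin conjugase of the anaphase-promoting complex, was at 24.3, 27.9 and 27.2 FPKM at 24 h and at 15.8, 10.98 and 12.1 FPKM at 72 h, a log2 fold change of -1.01 ± 0.16 (SE; limma adjusted p = 0.131). Cdc20, which activates that complex, was at 38.3, 54.6 and 49.8 FPKM and then at 31.6, 23.02 and 23.7 FPKM. Cdk1, the kinase that drives entry into mitosis, was at 33.4, 38.5 and 45.4 FPKM and then at 24.3, 16.1 and 25.8 FPKM. In these 3 genes every 72 h library was below every 24 h library. Cdca3, which helps degrade mitotic entry inhibitors, and Nuf2, a kinetochore subunit, had log2 fold changes of -0.86 and -0.79 and no overlap. The abundant Top2a, the topoisomerase that untangles chromosomes, overlapped at 41.7, 67.6 and 83.3 FPKM and then 54.4, 43.7 and 60.8 FPKM, and so did the proliferation marker Mki67 at 8.91, 14.4 and 22.6 FPKM and then 14.4, 12.5 and 18.2 FPKM. Ube2c and Cdc20 share exon positions with Tnnc2 and Elovl1 on the other strand.

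Genes of DNA replication and the G1/S transition were lower about as often as all genes. Of 54 tested, 8 were lower at an unadjusted limma p under 0.05 (14.8%, against 11% of all genes), 7 were lower without overlap (12.96%, against 13.9%) and none higher, and the median log2 fold change was -0.24. Pcna, the sliding clamp of DNA polymerase, was at 84.1, 85.4 and 79.6 FPKM and then at 64.9, 51.9 and 62.7 FPKM, and Rrm1, the large subunit of ribonucleotide reductase, at 93.4, 105 and 100.2 FPKM and then at 78.4, 68.4 and 67.2 FPKM. Their 24 h libraries lay close together and above all of 72 h, with log2 fold changes of -0.48 and -0.48 (limma adjusted p = 0.162 and 0.154). Orc6, of the origin recognition complex, was lower too, with a log2 fold change of -0.59 and no overlap. The counts of both lists depended on single libraries. Without replicate 1 of 24 h, which had the lowest mitotic level of its group, 36 mitotic and 14 replication genes were lower at an unadjusted limma p under 0.05, without replicate 2 of 24 h 15 and 4 were, and without replicate 3 of 24 h 14 and 4. Leaving out replicate 1 or 2 of 72 h left 18 or 14 mitotic genes, and replicate 2 of 72 h left 5 replication genes. Without replicate 3 of 72 h 13 replication genes were.

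In mono-culture 60 of the 65 mitotic genes were called lower, against 9.05% of all genes, with a median log2 fold change of -1.33, and Ube2c went from 30.1, 32.9 and 22.01 FPKM to 8.41, 7.02 and 7.003 FPKM. The difference of the changes, co-culture minus mono-culture, was above 0 at an unadjusted limma p under 0.05 in 43 of the 65 mitotic and 15 of the 54 replication genes, against 3.14% of all genes, and below 0 in none. It was 0.83 for Ube2c (limma adjusted p = 0.264), 1.28 for Top2a (adjusted p = 0.316) and 1.15 for Mki67 (adjusted p = 0.401), and none was called. The mean level of the mitotic genes at 72 h was 3.46, 3.12 and 3.55 on the log2(FPKM + 0.5) scale in co-culture and 2.44, 2.82 and 2.53 in mono-culture, with no overlap. At 24 h the groups overlapped, at 3.47, 3.84 and 4.04 in co-culture and 3.999, 4.09 and 3.52 in mono-culture.

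The promoters of Ube2c and Cdc20 are printed because they hold the letters TTTGAA of the cell cycle homology region, through which late cell cycle genes are kept silent in resting cells. They are from RefSeq on GRCm38.p6 over the same window, at chr2:164769679-164769978 on the plus strand and chr4:118437294-118437593 on the minus strand, with matches on either strand in capitals.
Ube2c promoter: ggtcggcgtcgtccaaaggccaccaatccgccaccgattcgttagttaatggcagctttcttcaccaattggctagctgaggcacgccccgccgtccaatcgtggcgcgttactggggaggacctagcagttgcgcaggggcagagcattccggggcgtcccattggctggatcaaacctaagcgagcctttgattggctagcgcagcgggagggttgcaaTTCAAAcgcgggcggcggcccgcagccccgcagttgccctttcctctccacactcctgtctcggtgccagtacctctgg
Cdc20 promoter: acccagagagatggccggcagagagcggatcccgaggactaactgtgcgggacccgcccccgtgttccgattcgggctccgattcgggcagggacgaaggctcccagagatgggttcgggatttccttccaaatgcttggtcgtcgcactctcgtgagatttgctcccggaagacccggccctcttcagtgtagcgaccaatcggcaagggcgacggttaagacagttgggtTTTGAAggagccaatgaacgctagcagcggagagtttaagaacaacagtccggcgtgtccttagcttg

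The match began 29 bases before the start of Ube2c and 18 bases before that of Cdc20. The letters occurred in 37 of 54 promoters of mitotic members (68.5%), in 6 of 43 of replication members (13.95%), in 1076 of the 9310 promoters of genes tested (11.6%) and in 4893 of the 27025 promoters of the table (18.1%). The CCAAT box, which is common near such promoters, occurred in 37 of 54 mitotic and 26 of 43 replication promoters, against 39.2% of the promoters of genes tested and 37.9% of the table, and its letters CCAAT share no overlap with TTTGAA. These are counts of letters within 300 bases and say nothing of binding.

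**Figure D3:**
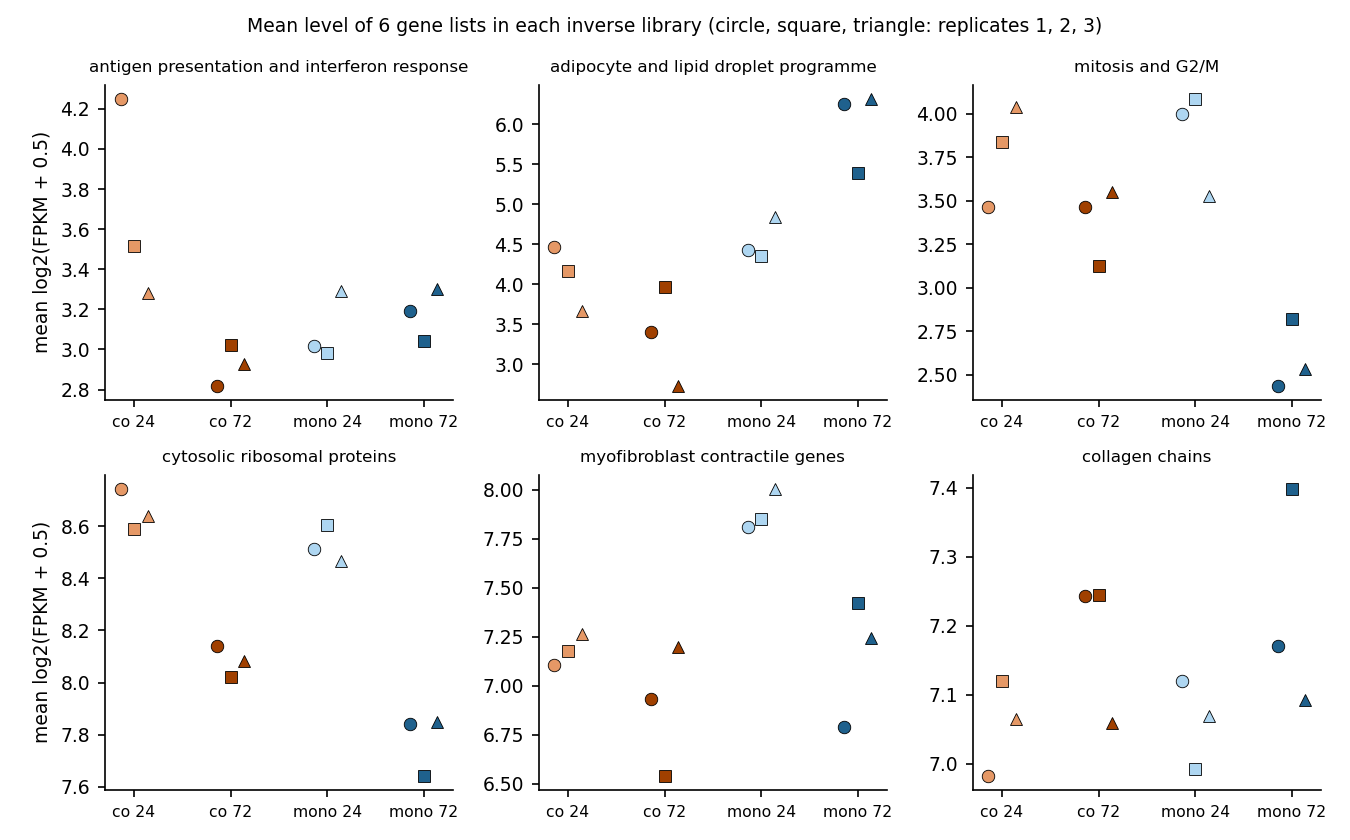
Mean log2(FPKM + 0.5) over the tested members of 6 gene lists in each library of the inverse model, with co for co-culture and mono for mono-culture at 24 and 72 h and circle, square and triangle for replicates 1, 2 and 3. The interferon list was highest in replicate 1 of co-culture at 24 h (4.25), and ribosomal protein genes were lower in every 72 h library than in every 24 h library of the same culture.

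The most uniform difference was in the genes of cytosolic ribosomal proteins. Of 80 tested, all 80 had a negative log2 fold change, 75 (93.8%, against 11% of all genes) were lower at an unadjusted limma p under 0.05 and 72 (90%, against 13.9%) were lower without overlap, with a median of -0.53. The mean level was 8.74, 8.59 and 8.64 on the log2(FPKM + 0.5) scale at 24 h and 8.14, 8.02 and 8.08 at 72 h, and leaving out any 1 library kept the median between -0.48 and -0.56. Rpl37a was at 453, 415 and 501 FPKM at 24 h and at 279, 267 and 194 FPKM at 72 h (log2 fold change -0.90 ± 0.16 (SE); limma adjusted p = 0.131). Rpl41, the smallest ribosomal protein, was at 858, 842 and 988 FPKM and then at 595, 493 and 437 FPKM, and Rplp0 of the ribosomal stalk at 2244, 2168 and 1856 FPKM and then at 1559, 1404 and 1618 FPKM. All 3 were lower at 72 h without overlap. In mono-culture 76 of the 80 were called lower, against 9.05% of all genes, with a median of -0.76, and in standard co-culture the median was -0.20. Copies of ribosomal protein genes elsewhere in the genome can share their reads, so single values are uncertain. B2m and Rpl37a are also genes for which the study's methods list quantitative PCR primers, and both were lower at 72 h by log2 fold changes of -0.76 and -0.90.

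Short genes outside this list were lower at 72 h as well. With ribosomal protein genes left out, the median log2 fold change in co-culture was -0.34 in the 581 genes of up to 500 bases, -0.27 in the 1953 of 501 to 1000 bases, -0.10 in the 5209 of 1001 to 2000 bases, 0.03 in the 4069 of 2001 to 4000 bases and 0.17 in the 866 genes over 4000 bases. Of the genes of 501 to 1000 bases 24.99% were lower and 1.89% higher at an unadjusted limma p under 0.05, and of those over 4000 bases 1.73% were lower and 12.2% higher. Mono-culture showed the same order above 500 bases, from -0.16 at 501 to 1000 bases to 0.24 over 4000 bases, and standard co-culture stayed between -0.10 and -0.04. The median length of the ribosomal protein genes is 698.5 bases, and 12 of the 80 are longer than 1000 bases. The part of gene length in the results of this section was not tested.

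**Figure D4:**
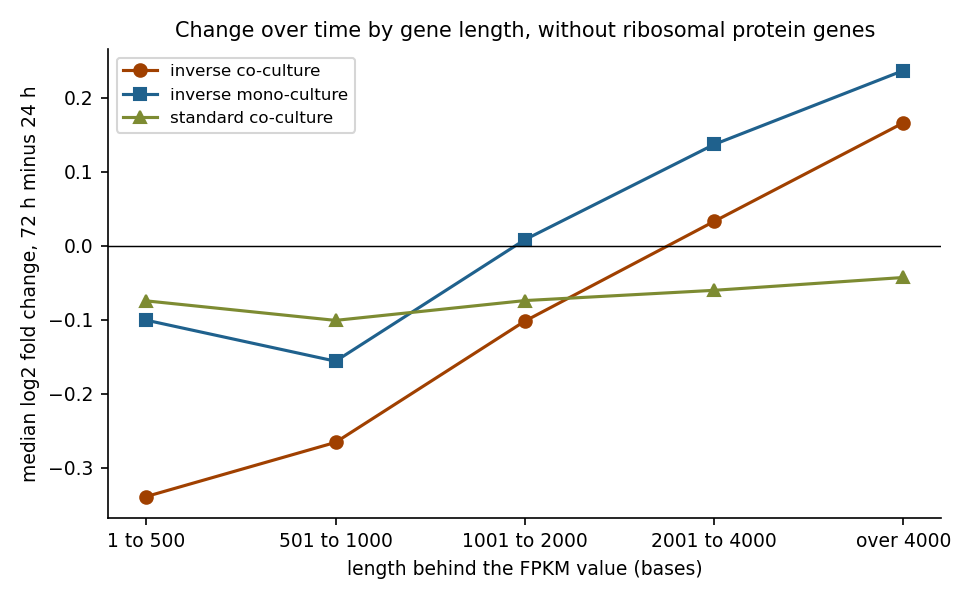
Median log2 fold change, 72 h minus 24 h (vertical axis), of genes grouped by the length behind their FPKM value in bases (horizontal axis), with cytosolic ribosomal protein genes left out. In inverse co-culture the median runs from -0.34 in genes of up to 500 bases to 0.17 in genes over 4000 bases, while standard co-culture stays between -0.10 and -0.04.

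When all 24 libraries shared one limma model, 118 genes were called lower (0.925%) and 5 higher (0.0392%) at 72 h in inverse co-culture, and in none of these 123 did the 6 libraries overlap. Among the 118 were 31 of the 80 ribosomal protein genes (38.8%), and 89 (75.4%) were up to 1000 bases long, against 20.4% of all genes tested. Cox5b, a subunit of cytochrome oxidase, was at 132, 124 and 102 FPKM at 24 h and at 74.0, 70.0 and 75.8 FPKM at 72 h, and Ndufa2, of complex I, at 98.5, 93.8 and 86.3 FPKM and then at 61.7, 57.2 and 45.7 FPKM. Both are encoded in the nucleus, short, and were chosen as examples after their values were seen. The 5 called higher in that model were Glis2, Zfp609, Cbarp, Lclat1 and Ccnt1, of which Glis2, a zinc finger transcription factor, was at 29.1, 31.1 and 33.1 FPKM and then at 53.6, 60.1 and 51.0 FPKM. The 12 tested respiratory chain genes of mitochondrial DNA had a median log2 fold change of -0.45, and 1 of them (8.33%, against 13.9% of all genes) was lower without overlap. At an unadjusted limma p under 0.05, 4 were lower (33.3%, against 11%). That count was 9 without replicate 3 of 24 h, 1 without replicate 1 of 72 h, and 0 without replicate 1 or replicate 2 of 24 h or replicate 3 of 72 h. The median was -0.27 without replicate 1 of 24 h. The one without overlap was mt-Nd1, a complex I subunit, at 1345, 1063 and 867 FPKM and then at 841, 841 and 647 FPKM, and mt-Co1, of cytochrome oxidase, overlapped at 3955, 3381 and 2537 FPKM and then 2593, 2569 and 2062 FPKM.

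Contractile genes of the myofibroblast were lower at 72 h in part. Of 28 tested, 9 (32.1%, against 11% of all genes) were lower at an unadjusted limma p under 0.05, 8 (28.6%, against 13.9%) were lower without overlap and none was higher, with a median log2 fold change of -0.22. Cnn1, calponin of smooth muscle, was at 291, 338 and 290.0 FPKM at 24 h and at 176, 116 and 198 FPKM at 72 h (log2 fold change -0.94 ± 0.20 (SE); limma adjusted p = 0.14). Actg2, an enteric smooth muscle actin, was at 383, 416 and 390.3 FPKM and then at 220.4, 158 and 321 FPKM, and Myl9, the regulatory light chain of myosin, at 1064, 1027 and 829 FPKM and then at 603, 465 and 673 FPKM. In all 3 the groups did not overlap, and replicate 2 was the lowest of 72 h. Acta2, the smooth muscle actin that defines myofibroblasts, was at 1474, 1519 and 1253 FPKM and then at 899.5, 563 and 1362 FPKM, so that replicate 3 of 72 h lay within the 24 h range. Its mean was 1415 ± 143 FPKM (SD, n = 3) at 24 h and 941 ± 401 FPKM (SD, n = 3) at 72 h. Acta1, the skeletal muscle actin, had the largest log2 fold change of the list, -1.40, at 12.3, 10.3 and 14.4 FPKM and then at 6.35, 4.01 and 3.11 FPKM. Tagln, transgelin, was at 27.8, 25.1 and 25.6 FPKM and then at 17.1, 10.0 and 23.9 FPKM, and its position is shared with Pcsk7 and an antisense transcript. Vim, vimentin, was at 1161, 1109 and 1186 FPKM and then at 859.6, 722 and 1116 FPKM and overlapped. Without replicate 3 of 72 h the list median was -0.45 with 15 members lower at an unadjusted limma p under 0.05, and without replicate 2 of 72 h it was -0.08 with 6. Without replicate 2 of 24 h it was -0.18 with 6.

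In mono-culture 17 of 28 contractile genes were called lower, against 9.05% of all genes, and Acta2 was among them, from 2835, 2790 and 2922 FPKM to 763, 1347 and 1137 FPKM. The difference of the changes, co-culture minus mono-culture, was 0.76 for Acta2 and 0.36 for Cnn1 (limma adjusted p = 0.495 and 0.662), and 8 of the 28 members were above 0 at an unadjusted limma p under 0.05, against 3.14% of all genes, and none below. At 24 h Acta2 and Cnn1 were already lower in all 3 co-culture than in all 3 mono-culture libraries, and at 72 h the groups of both overlapped.

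Signals of the transforming growth factor family differed in both directions. Smad6, an inhibitor of BMP signalling that BMP itself induces, was at 269, 270 and 114 FPKM at 24 h and at 91.2, 85.9 and 80.4 FPKM at 72 h. Id1 and Id4, further targets of BMP, were at 212, 169 and 136 FPKM and 61.7, 59.8 and 46.0 FPKM at 24 h and at 112, 112 and 92.2 FPKM and 37.5, 37.3 and 32.1 FPKM at 72 h. Fst, which traps activins, was at 45.0, 52.4 and 41.0 FPKM and then at 31.9, 28.0 and 23.6 FPKM. All 4 were lower without overlap, with log2 fold changes of -1.24, -0.69, -0.63 and -0.72 (limma adjusted p = 0.162, 0.162, 0.154 and 0.143). Bmp6, a BMP ligand, was higher, at 19.6, 18.2 and 22.5 FPKM and then 30.6, 33.1 and 31.2 FPKM, a log2 fold change of 0.65. The list had a median of -0.02 over 37 tested members. Of these, 4 were higher (10.8%, against 7.81% of all genes) and 5 lower (13.5%, near the 13.9% of all genes) without overlap. At an unadjusted limma p under 0.05, 6 were higher (16.2%, against 4.29% of all genes) and 9 lower (24.3%, against 11%). These counts were 3 and 5 without replicate 1 of 24 h, 3 and 4 without replicate 2 of 24 h, and 4 and 5 without replicate 1 or without replicate 2 of 72 h. They were 9 and 10 without replicate 3 of 24 h. Without replicate 3 of 24 h Smad6 passed the adjusted threshold.

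Among Wnt and Notch genes Hey1, a Notch target and transcriptional repressor that BMP also induces, differed most, at 15.8, 12.02 and 3.81 FPKM at 24 h and at 1.87, 1.19 and 3.72 FPKM at 72 h. Replicate 3 of 24 h was barely above the highest 72 h library, and the log2 fold change was -1.90 ± 0.52 (SE; limma adjusted p = 0.181). Limma also called Hey1 lower in mono-culture, with a log2 fold change of -0.95 (adjusted p = 0.00323). In standard co-culture its log2 fold change was -1.12 (limma adjusted p = 0.876). For inverse co-culture in the limma model of all 24 libraries its adjusted p was 0.0499. The receptor Notch1 lay the other way, at 7.82, 13.4 and 12.5 FPKM and then at 15.4, 14.7 and 21.7 FPKM, and Frzb, a secreted Wnt antagonist, at 21.996, 24.4 and 28.1 FPKM and then at 38.0, 36.4 and 40.9 FPKM. The 30 tested members had a median of -0.08, with 2 higher and 2 lower without overlap (6.67% each way, against 7.81% and 13.9% of all genes). That median was -0.28 without replicate 3 of 24 h, -0.21 without replicate 2 of 72 h and -0.01 without replicate 1 of 24 h. The ligand Wnt4 was the other lower one, with a log2 fold change of -0.78.

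The matrix genes showed no common direction. Collagen chains had a median log2 fold change of 0.16 over 26 tested of 43 listed, with 4 higher (15.4%, against 7.81% of all genes) and 1 lower (3.85%, against 13.9%) without overlap. Leaving out single libraries moved this median between 0.04, without replicate 1 of 24 h, and 0.18. The basement membrane chains Col4a1, Col4a2 and Col4a5 were among the higher ones. Col4a1 was at 1490, 1872 and 1878 FPKM at 24 h and at 2154, 2454 and 2077 FPKM at 72 h, and Col15a1, a chain next to basement membranes, at 824, 925 and 1081 FPKM and then at 1274, 1309 and 1158 FPKM. Both lay above all of 24 h, with log2 fold changes of 0.36 and 0.41 (limma adjusted p = 0.326 and 0.245). Col4a1 and Col4a2 share positions on opposite strands. The fibrillar chains were far more abundant and overlapped, Col3a1 at 12036, 12234 and 12959 FPKM and then 17119, 18555 and 11284 FPKM, and Col1a1 at 6611, 8048 and 10369 FPKM and then 9517, 8277 and 9337 FPKM. Col6a2 was the one chain lower without overlap, by a log2 fold change of -0.21.

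Of the other matrix proteins, 11 of 63 were higher (17.5%, against 7.81% of all genes) and 12 lower (19.05%, against 13.9%) without overlap. Fn1, fibronectin, was at 3901, 5114 and 7278 FPKM at 24 h and at 9086, 8873 and 10101 FPKM at 72 h, a log2 fold change of 0.83 ± 0.25 (SE; limma adjusted p = 0.208). The groups did not overlap, and replicate 3 was the highest of each time. Mfap4, which organises elastic fibres, was at 46.8, 32.4 and 36.5 FPKM and then at 77.1, 58.6 and 88.4 FPKM. The small leucine-rich proteoglycans Fmod and Lum, which control the width of collagen fibrils, were at 86.9, 86.0 and 58.7 FPKM and 52.0, 37.8 and 20.2 FPKM at 24 h and at 36.8, 38.4 and 26.3 FPKM and 17.5, 19.7 and 11.3 FPKM at 72 h. Both were lower without overlap, with log2 fold changes of -1.18 and -1.09 (limma adjusted p = 0.131 and 0.219). Fmod passed the adjusted threshold in the model of all 24 libraries (limma adjusted p = 0.0199), and Lum did not. Tgfbi, an adhesion protein that transforming growth factor beta induces, was at 16.8, 12.02 and 9.22 FPKM and then at 5.10, 6.40 and 2.22 FPKM, and Smoc2, a matricellular protein, at 58.1, 49.3 and 35.8 FPKM and then at 25.7, 33.3 and 11.2 FPKM. Npnt, nephronectin, an integrin ligand of basement membranes, was called lower by limma in mono-culture (log2 fold change -1.40, adjusted p = 0.00416). In co-culture it was at 9.25, 17.2 and 5.99 FPKM and then at 2.94, 2.53 and 2.78 FPKM, a log2 fold change of -1.68 (limma adjusted p = 0.14). Spp1, osteopontin, Vcan, versican, and Sdc4, syndecan 4, overlapped, with log2 fold changes of 0.16, 0.24 and 0.18, and so did the versican-modifying enzyme Chst11 at 0.23.

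Of 23 enzymes that mature collagen 7 were lower (30.4%, against 13.9% of all genes) and 1 higher (4.35%, against 7.81%) without overlap, at a list median of -0.10, which was -0.04 without replicate 3 of 72 h. Loxl3, a lysyl oxidase that crosslinks collagen, was at 103, 106 and 98.2 FPKM at 24 h and at 68.8, 70.4 and 59.5 FPKM at 72 h, and Plod3, a lysyl hydroxylase, at 299, 329 and 314 FPKM and then at 251, 241 and 226 FPKM. Their log2 fold changes were -0.63 and -0.39 (limma adjusted p = 0.131 and 0.177), and both share positions with a gene on the other strand. Pcolce2, which speeds the removal of the collagen propeptide, was at 38.8, 32.5 and 32.1 FPKM and then at 20.7, 21.2 and 17.6 FPKM. Tgm2, a transglutaminase that crosslinks matrix proteins, was the one enzyme higher without overlap, at 43.4, 42.6 and 48.6 FPKM and then 58.0, 58.7 and 61.1 FPKM. Among the proteases Adamts1 and Adamts5, which cut versican and aggrecan, were at 109, 107 and 119 FPKM and 65.8, 66.4 and 89.9 FPKM at 24 h and at 184, 161 and 171 FPKM and 120.4, 119 and 138 FPKM at 72 h. Timp1, an inhibitor of metalloproteinases, was at 1201, 1235 and 1208 FPKM and then at 900.1, 877 and 341 FPKM, so the 24 h libraries were nearly level while replicate 3 of 72 h was far below the rest. All 3 genes were without overlap, with log2 fold changes of 0.62, 0.77 and -0.91 (limma adjusted p = 0.131, 0.131 and 0.269). They were picked for that from the list of matrix proteases and their inhibitors. Of its 35 tested members, 3 were higher and 3 lower without overlap (8.57% each way, against 7.81% and 13.9% of all genes).

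Inflammatory genes had no common direction. Il6, interleukin 6, was at 66.2, 43.4 and 79.8 FPKM at 24 h and at 136, 102 and 82.6 FPKM at 72 h, a log2 fold change of 0.77 ± 0.25 (SE; limma adjusted p = 0.228), with replicate 3 of both times close to each other. C3 and C4b, the central components of complement, were at 1103, 1082 and 971 FPKM and 126, 112 and 137 FPKM at 24 h and at 2222, 2585 and 1361 FPKM and 226, 239.8 and 170.5 FPKM at 72 h. Neither overlapped, and the log2 fold changes were 0.92 and 0.75 (limma adjusted p = 0.162 and 0.14). Zc3h12a, an RNase that destroys cytokine messengers, and Osmr, the receptor of oncostatin M, were higher without overlap by log2 fold changes of 0.51 and 0.27. Of the 32 tested genes of NF-kB and IL1 feedback and the acute phase, 4 were higher without overlap (12.5%, against 7.81% of all genes) and none lower. In that list 18 genes had a positive and 14 a negative fold change. Ccl24, a chemokine for eosinophils, was at 6.55, 5.31 and 3.41 FPKM and then at 2.53, 1.67 and 1.61 FPKM. The 33 tested cytokine and chemokine genes had a median of -0.02 with 2 higher and 2 lower without overlap (6.06% each way, against 7.81% and 13.9% of all genes). At an unadjusted limma p under 0.05, 4 were higher (12.1%, against 4.29%) and 2 lower (6.06%, against 11%). The higher count was 2 without replicate 1 or replicate 2 of 24 h, 1 without replicate 1 of 72 h and 6 without replicate 3 of 72 h. The lower count was 6 without replicate 3 of 24 h. The 17 complement genes had a median of 0.07, which was -0.18 without replicate 3 of 24 h and 0.35 without replicate 1 of 24 h. Of the 17, 3 were higher (17.6%, against 7.81%) and 1 lower (5.88%, against 13.9%) without overlap. In mono-culture 13 of the 17 complement genes were called higher and 1 lower, against 10.2% and 9.05% of all genes.

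Of the protein-coding genes without overlap and with a mean of at least 5 FPKM at 72 h, Ccl6 and Cd53 had the largest log2 fold changes upward. Ccl6, a chemokine of myeloid cells, was at 6.03, 1.72 and 3.43 FPKM at 24 h and at 14.3, 16.7 and 13.7 FPKM at 72 h, and Cd53, a tetraspanin of leukocytes, at 1.27, 2.20 and 2.57 FPKM and then at 5.91, 5.27 and 11.4 FPKM. The log2 fold changes were 1.99 and 1.64 (limma adjusted p = 0.131 and 0.14), and mono-culture libraries held 0.331 to 1.28 FPKM of Ccl6. Cd53 is on the list of leukocyte markers, of which 13 of 21 were tested, with a median log2 fold change of 0.43. Of the 13, 1 was higher and 1 lower without overlap (7.69% each way, against 7.81% and 13.9% of all genes). Without replicate 3 of 24 h that median was -0.13. Over the same hours in mono-culture, limma called 11 of 14 tested leukocyte markers higher and none lower, against 10.2% and 9.05% of all genes. Their median log2 fold change was 1.19 there, and 0.99 over 17 tested in standard co-culture, where none was called. Cd53 itself had log2 fold changes of 1.07 in mono-culture and 1.49 in standard co-culture (limma adjusted p = 0.0936 and 0.876). Lyz2, lysozyme of macrophages, was at 62.3, 53.4 and 18.4 FPKM and then at 59.8, 64.6 and 41.5 FPKM, C1qa at 6.47, 4.83 and 1.49 FPKM and then at 4.61, 4.20 and 2.62 FPKM, and Ptprc, the pan-leukocyte antigen, was at or below 0.573 FPKM in all 6 libraries. The part of leukocytes in these differences was not tested.

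Among growth factor genes Igfbp2, an IGF binding protein, was at 226, 223 and 177 FPKM at 24 h and at 70.6, 64.3 and 118 FPKM at 72 h, a log2 fold change of -1.35 ± 0.23 (SE; limma adjusted p = 0.131). Without replicate 3 of 72 h it passed the adjusted threshold. Igfbp6 lay the other way, at 119.5, 109 and 128 FPKM and then at 154, 154 and 142 FPKM, and Insr, the insulin receptor, at 9.24, 12.8 and 14.4 FPKM and then at 15.7, 16.2 and 19.2 FPKM. Pdgfra, the receptor that marks fibroblasts, was at 298, 302 and 308 FPKM and then at 361, 384 and 391.7 FPKM, with a log2 fold change of 0.32 ± 0.10 (SE) and very little spread, and its ligand Pdgfa was lower, at 19.4, 18.9 and 14.9 FPKM and then at 12.97, 9.22 and 11.9 FPKM. Fgf9, a fibroblast growth factor, was at 4.64, 3.54 and 4.19 FPKM and then at 7.42, 6.68 and 9.99 FPKM, and Fgfr2, a receptor, at 9.06, 10.9 and 5.14 FPKM and then at 4.63, 4.60 and 5.10 FPKM. Each of these 7 genes was without overlap, though Fgfr2 by a small margin, and none was called. They were picked for that from lists of 26 tested PDGF, VEGF and IGF genes, of which 15.4% were higher and 11.5% lower without overlap, and 21 tested EGF, HGF and FGF genes, of which 4.76% were higher and 14.3% lower, against 7.81% and 13.9% of all genes. At an unadjusted limma p under 0.05, 6 of the 26 were higher (23.1%, against 4.29%), a count that was 2 without replicate 1 or replicate 2 of 24 h.

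Stress and organelle genes differed in small groups. Of 25 tested endoplasmic reticulum chaperones and unfolded protein response genes 7 were lower (28%, against 13.9% of all genes) and 1 higher (4%, against 7.81%) without overlap, with a median of -0.38. Calr, calreticulin, was at 978, 1029.8 and 890.0 FPKM at 24 h and at 739, 783 and 315 FPKM at 72 h, Pdia3, a disulfide isomerase, at 845, 871 and 728 FPKM and then at 649, 694 and 315 FPKM, and Sec61b, of the translocation channel, at 189, 175 and 165 FPKM and then at 129.6, 115 and 62.0 FPKM. Replicate 3 of 72 h was by far the lowest in these genes, and without it the list median was -0.14. Ern1, the sensor IRE1, was higher, at 12.5, 11.9 and 14.96 FPKM and then 15.4, 21.1 and 20.8 FPKM. Lamp1, a membrane protein of lysosomes, was at 619, 576 and 477 FPKM at 24 h and at 389, 414 and 404 FPKM at 72 h. Of the 37 lysosome and autophagy genes 8 were lower (21.6%, against 13.9%) and 1 higher (2.70%, against 7.81%) without overlap. Of the 31 tested NRF2 and antioxidant genes 2 were lower without overlap (6.45%, under the 13.9% of all genes). These were Gpx1 and Txn1, which reduce peroxides and oxidised proteins, at 242, 221 and 215 FPKM and 168, 145 and 127 FPKM and then at 142, 111 and 138 FPKM and 100.2, 109 and 100.4 FPKM. All of these except Ern1 lay lower at 72 h without overlap, with log2 fold changes from -0.46 (Lamp1) to -0.85 (Sec61b).

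Higher at 72 h were Ddit4, a stress-induced inhibitor of the mTOR pathway, at 69.6, 56.0 and 90.6 FPKM and then 121, 105 and 118 FPKM, and Btg2, an antiproliferative early response gene, at 105, 69.3 and 97.1 FPKM and then 177, 154 and 116 FPKM. Both were without overlap, with log2 fold changes of 0.69 and 0.72 (limma adjusted p = 0.162 and 0.191). Of the 36 tested immediate early and ERK feedback genes 3 were higher without overlap (8.33%, near the 7.81% of all genes) and none lower, and 34 had a positive fold change, at a median of 0.30. At an unadjusted limma p under 0.05, 5 were higher (13.9%, against 4.29% of all genes). That count was 16 without replicate 3 of 24 h, 9 without replicate 3 of 72 h, 1 without replicate 2 of 24 h and 2 without replicate 1 of 72 h. The 37 glycolysis and HIF1 targets had a median of 0.19 with 1 higher, the 21 YAP targets 0.19 with 1 higher (Amotl2, an angiomotin that holds YAP in the cytoplasm), and the 46 ATF4 and amino acid genes 0.14 with 1 higher. These single members are 2.70%, 4.76% and 2.17% of their lists, under the 7.81% of all genes. The medians moved with single libraries. That of glycolysis was 0.10 without replicate 1 and 0.11 without replicate 2 of 24 h, and 0.47 without replicate 3 of 24 h, with 18 members higher at an unadjusted limma p under 0.05. That of the YAP targets was 0.12 without replicate 1 of 24 h, 0.10 without replicate 3 of 72 h and 0.31 without replicate 2 of 72 h, and that of ATF4 was -0.19 without replicate 3 of 72 h and 0.28 without replicate 2 of 72 h. Of the 30 cell cycle inhibitors and p53 targets 5 were higher (16.7%, against 7.81% of all genes), among them Zmat3 and Plk2, and 6 lower (20%, against 13.9%), among them Phlda3 and Cdkn2c, without overlap. At an unadjusted limma p under 0.05, 3 were higher (10%, against 4.29%) and 2 lower (6.67%, against 11%), and both counts were 0 without replicate 1 or replicate 2 of 24 h.

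Outside the lists, the larger differences upward included Adcyap1r1, the receptor of the neuropeptide PACAP, at 34.6, 43.7 and 87.1 FPKM at 24 h and 125, 103 and 139 FPKM at 72 h, which passed the adjusted threshold without replicate 3 of 24 h. Eps8, an actin regulator downstream of growth factor receptors, was at 6.49, 7.01 and 14.6 FPKM and then at 17.8, 25.7 and 15.3 FPKM, and Dchs1, a large protocadherin, at 2.64, 3.68 and 5.06 FPKM and then at 7.85, 6.16 and 9.001 FPKM. Their log2 fold changes were 1.25, 1.09 and 0.95 (limma adjusted p = 0.159, 0.204 and 0.174). The larger differences downward included Tmem150a, a membrane protein of phosphoinositide signalling, at 22.3, 19.6 and 12.1 FPKM and then 3.86, 1.91 and 4.89 FPKM, and Lrrc17, a leucine-rich repeat protein, at 11.4, 10.1 and 5.71 FPKM and then 3.45, 3.11 and 1.73 FPKM. Both were without overlap, with log2 fold changes of -2.22 and -1.54 (limma adjusted p = 0.131 and 0.14). Limma also called Eps8 higher and Lrrc17 lower in mono-culture, with log2 fold changes of 0.93 and -0.82 (adjusted p = 0.0127 and 0.046). Adcyap1r1 and Dchs1 had 0.58 and 0.50 there and were not called. In mono-culture Tmem150a stayed between 1.55 and 4.14 FPKM, and the difference of the changes was -2.69 (limma adjusted p = 0.0723). Standard co-culture went the other way, with a log2 fold change of 1.85 (limma adjusted p = 0.876). The change in inverse minus that in standard co-culture was -4.08 (limma adjusted p = 0.22). Tmem150a shares exon positions with Rnf181 on the other strand, and Lrrc17 with Fbxl13.

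Set beside mono-culture as a whole, the change in co-culture was smaller where mono-culture changed most. In mono-culture limma called 1331 genes higher (10.2%) and 1185 lower (9.05%) of 13092, with a median SD of single genes of 0.16 at 24 h and 0.17 at 72 h, against 0.21 and 0.20 in co-culture. Both comparisons share no library, and 12471 genes were tested in both. Of the 531 genes higher in co-culture at an unadjusted p under 0.05, 218 were among the 1248 called higher in mono-culture and none among those called lower, and of the 1397 lower in co-culture 546 were among the 1173 called lower in mono-culture and 24 among those called higher. The genes called higher in mono-culture had a median log2 fold change of 0.65 there and 0.16 in co-culture, with the same sign in 874 of 1248. Those called lower had -0.67 and -0.37, with the same sign in 1061 of 1173. Since the mono-culture values chose these genes, the larger size there is in part fixed by the choice.

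In standard co-culture no gene of 12805 was called between the same time points (0.0%), with 467 at an unadjusted limma p under 0.05 (3.65%) and a smallest adjusted p of 0.876. With the replicate number as a block, which pairs the libraries of standard co-culture, 1597 genes had an unadjusted p under 0.05 and none was called. The difference between the changes in inverse and standard co-culture was called in no gene of 13510 by limma or by voom, with 551 at an unadjusted limma p under 0.05 (4.08%), or 1094 with the replicate block. RNA input was 120 ng in the inverse and 450 ng in the standard model. PSC of standard co-culture met the KPC cells when the count began, and those of inverse co-culture 24 h before it. Neither difference can be told apart from the model. The list medians lay in the same direction for mitosis, at -0.40 inverse and -0.72 standard, and were -0.75 and -0.12 for interferon and antigen presentation genes, a difference that was not tested for the list.

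**Figure D5:**
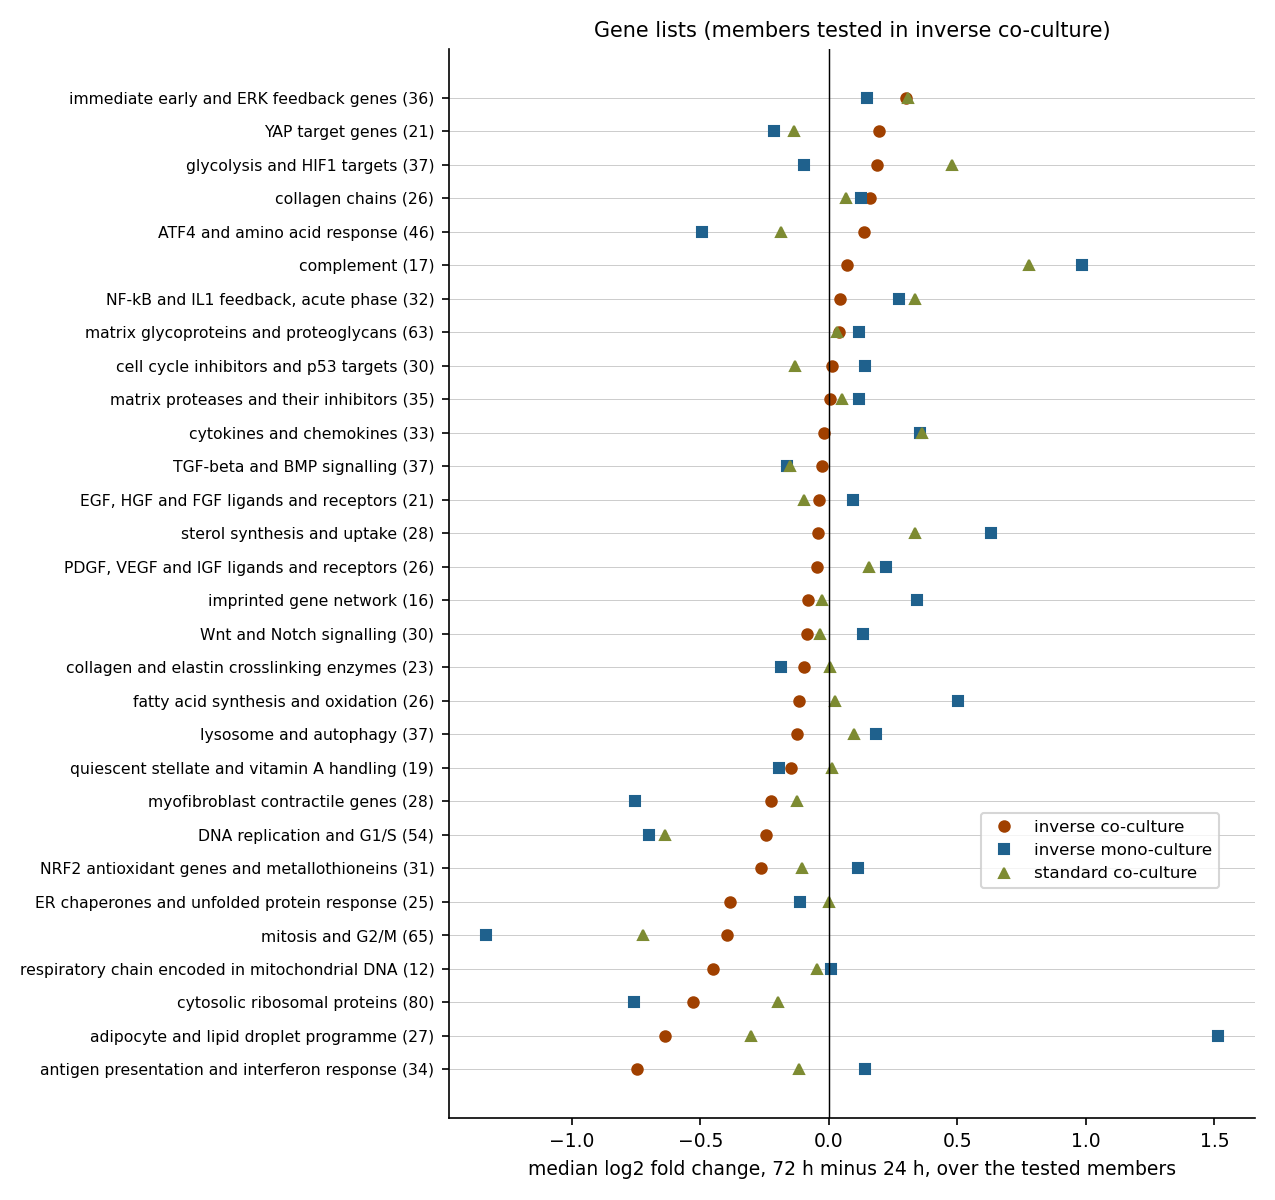
Median log2 fold change, 72 h minus 24 h (horizontal axis), over the tested members of each of 30 gene lists, with the number tested in inverse co-culture in brackets, for inverse co-culture (circles), inverse mono-culture (squares) and standard co-culture (triangles). In inverse co-culture the interferon list lies at -0.75, and the adipocyte list lies at -0.64 in co-culture and 1.51 in mono-culture.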

How the data were processed

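Polyadenylated RNA of PSC trypsinised off the insert was sequenced in 24 libraries, 3 in each of 8 groups. The authors aligned paired reads to GRCm38.p6 with HISAT2 2.0.5, counted them with featureCounts 1.5.0-p3 without regard to strand, and deposited FPKM values for 53801 genes, of which 53706 were matched to GENCODE M21. Fragments were recovered from the FPKM steps for 28889 of 28892 expressed genes (99.99%, tolerance 0.02 of a fragment). Intervals and floors cover counting error only.

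Genes above 1 FPKM in at least 3 libraries of a comparison were tested with limma 3.58.1 in R 4.3.3 on log2(FPKM + 0.5), with an intensity trend and Benjamini-Hochberg adjustment over all genes tested, on the libraries of that comparison and with no block for replicate number. In standard co-culture, unlike the inverse model, deviations of same-numbered libraries correlated at 0.60, 0.51 and 0.38, so the numbers pair those samples. The code was tested on simulated data. Tables and plots were made with Python 3.11.15, pandas 2.3.3, numpy 2.4.6 and matplotlib 3.10.9. The alternatives were other pseudocounts (1 and 0.1), filters, scalings, voom on recovered fragments, a replicate block, 1 model for all 24 libraries and leaving out each library. Voom or median-ratio scaling with the block, and list values without single libraries, were chosen after seeing the data.

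The members and lists were chosen with earlier results of these data known. Named genes were to be called genes. Since 1 was called, a rule set after the values were seen took protein-coding genes other than ribosomal protein genes and unnamed models, with no overlap between times and a mean of at least 5 FPKM in the higher group: the 10 largest fold changes each way, up to 5 such members of each of 30 lists, the 2 most abundant members of each list, and a few fixed genes. Leading members were thus picked for their difference. Glis2, Zfp609, Cbarp, Lclat1, Ccnt1, Cox5b, Ndufa2, Sidt2, Lyz2, C1qa and the class II genes stand outside that rule and were picked after their values were seen. Promoters were to be shown for lists with at least 5 called members. None had them, and the promoter counts were made after the values were seen. Some items are not reported here.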

Additional observations from a re-analysis of the deposited data

Results flagged for a closer look

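In 4 of the named genes the co-culture libraries of 72 h all lay on one side of those of 24 h and the mono-culture libraries of 72 h all on the other. The difference of the log2 fold changes, co-culture minus mono-culture, was -2.57 for Fabp4, -2.58 for Mgll, 0.66 for Igfbp6 and 0.97 for Plk2, a kinase that p53 induces. By limma over the 12 libraries of the inverse model the unadjusted p was 0.000558, 5.16e-05, 0.000521 and 0.00285, and the adjusted p 0.142, 0.0643, 0.137 and 0.244, so no difference was called. Plk2 was at 68.8, 64.5 and 74.3 FPKM and then at 80.7, 75.3 and 113 FPKM in co-culture, and at 59.1, 54.9 and 60.1 FPKM and then at 44.8, 43.4 and 27.2 FPKM in mono-culture. Igfbp6 was lower in mono-culture at 72 h, at 63.7, 57.9 and 66.2 FPKM against 70.1, 84.7 and 81.9 FPKM at 24 h.

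Some markers of other cell types had fragments in co-culture and none in the 6 mono-culture libraries of the inverse model. Krt8 and Krt18, epithelial keratins that were also tested, had 0, 683 and 63 and 6, 385 and 25 fragments at 24 h and 36, 3 and 115 and 11, 0 and 33 at 72 h. Krt19, a ductal keratin, had 20 to 261 fragments in co-culture and 0 to 9 in mono-culture. Cdh1, the epithelial cadherin, had 0, 61 and 8 fragments at 24 h and 3, 0 and 8 at 72 h, and Msln, mesothelin, 3, 129 and 1 and then 0, 0 and 10. Replicate 1 of 24 h held 28 fragments of Chga, chromogranin of endocrine cells, and the other 5 co-culture libraries held none. Their part in the results was not tested.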

How the results depend on the processing

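Of the co-culture counts of called genes, the 1 higher became 0 with a pseudocount of 0.1, with no filter on low values, with a mean above 5 FPKM, by voom, at an adjusted p under 0.01 and with the replicate block alone or with median-ratio scaling, 2 with no intensity trend, 5 with all 24 libraries in one model and 104 by voom with the block. The 0 lower became 118 with all 24 libraries and 305 by voom with the block, and leaving out 1 library gave 0 to 4 in each direction. In inverse co-culture same-numbered deviations correlated at 0.05, 0.06 and 0.21, and whether the replicate numbers pair the samples is not known. Of the 3 libraries of 24 h, 2 correlated most with the 72 h library of their own number. The limma block called no gene, with 2290 at an unadjusted p under 0.05 against 1953 without it. In mono-culture the 1331 higher and 1185 lower became 761 and 664 with no filter, 64 and 172 with all 24 libraries, 454 and 474 at an adjusted p under 0.01, and 664 to 1259 and 564 to 1110 without 1 library. For the difference between co-culture and mono-culture, the 0 above became 1 with no filter, with no trend and by voom, and 0 to 17 without 1 library. The 0 below became 2 with a pseudocount of 1, 3 with no filter, 2 by quantile normalization, 7 with no trend, 13 by voom, and 0 to 58 without 1 library, the most without replicate 3 of co-culture at 24 h. The cause was not tested. Standard co-culture and the inverse minus standard difference gave 0 called throughout. Quantile normalization turned the log2 fold change of Tpm4 to 0.019, Col1a1 to -0.043 and Sparc to -0.14. Leaving out 1 library gave -0.032 to 0.54 for Lpl, -0.017 to 0.31 for Col1a1, -0.30 to 0.42 for Des, -0.030 to 0.50 for Spp1 and -0.27 to 0.37 for Mki67. Of 2649 values for 140 genes, 2555 kept direction and side of the threshold, 10 lost a call, all Mir7087, 73 gained one and 11 reversed. Mir7087 rests on 6 to 8 fragments a library at 72 h. The median of the droplet list was below that of the interferon list by voom, at -0.87 against -0.79.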
